A study of Mus musculus with 3 samples.

Results

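The 10 genes described here encode the hypoxia-inducible factor subunits Hif1a and Epas1, the oxygen-sensing hydroxylases Egln1 and Egln3, the glucose transporter Slc2a1, and the glycolytic or pyruvate-handling enzymes Hk1, Hk2, Pdk1, Pkm and Ldha. They were chosen by name out of 21887 protein-coding genes, and every H3K9ac summit inside their mm10 gene records or within 20 kb of either record end was taken. This gave 168 of the 187421 summits in 3 lists. The assay was CUT&Tag, in which a transposase tethered to an antibody tags DNA, here for H3K9ac, a histone acetylation of active promoters and enhancers. Haematopoietic stem cells (HSCs) were sorted from bone marrow of wild-type mice, with 50000 cells per assay. The library labelled old HSC ABC and the library labelled old HSC are taken to be from mice of 18 to 24 months, and the library labelled young HSC from mice of 2 to 4 months, going by the letter that opens each title. The labels do not spell out ABC. There was 1 library per group, so no difference below has a replicate check and no test was run.

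Under normal oxygen, EGLN hydroxylases mark the HIF-alpha subunits HIF-1alpha (Hif1a) and HIF-2alpha (Epas1) for degradation. When oxygen is scarce, the subunits accumulate, pair with ARNT and bind a short DNA core, ACGTG or GCGTG, near their target genes. Genes for glucose uptake and glycolysis are well-known targets, and HSCs in the marrow are known for a high reliance on glycolysis and for HIF activity.

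The lists held 45386 summits in the ABC-labelled library, 108787 in the old-labelled library and 33248 in the young-labelled library, and read depth was unknown. Peak names in the files carried sample names that did not match these labels, and all 3 named an old sample. Every direction reported here therefore goes by the label alone. Scores from the authors' peak calling depend on the depth of their own library. They are therefore used to place a summit within its list, as "top 10%" for a summit among the highest-scoring 10%. Scores of different lists printed side by side are not compared. Only the closing section applies score cut-offs common to the 3 lists, and a common cut-off reaches a different place in each list. Comparisons were repeated on the 33248 highest-scoring summits of each list, called equal-length lists. Of 8 HSC marker genes, 4, 8 and 5 had a summit within 1 kb of a start in the ABC-, old- and young-labelled lists. Neutrophil and monocyte markers had one in 4, 6 and 3 of 8 cases. The calprotectin gene S100a8, Mpo and Csf1r had one in all 3 lists, and Ltf in the ABC- and old-labelled lists. S100a9, the other calprotectin gene, and Ngp had one in the old-labelled list only, and Elane and Ly6g in no list. Megakaryocyte markers stood at 2, 4 and 1 of 6, erythroid markers at 2, 2 and 1 of 5, T and NK cell markers at 1, 2 and 1 of 5, stroma and endothelium at 1, 3 and 0 of 5, and genes of other tissues at 0, 2 and 0 of 5. No B cell marker of 5 had one in any list. Over all protein-coding genes the shares were 45.3%, 57.5% and 44.2%. In equal-length lists the old-labelled counts were 5 for HSC, 6 for neutrophil and monocyte, 2 for megakaryocyte, 1 for erythroid and 2 for T and NK cell markers, and 0 for stroma and endothelium and for other tissues. The ABC-labelled counts there differed only for megakaryocyte markers, at 1, and the young-labelled list is the same in both. The part of such cells in the results below was not tested.

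Each of the 10 genes had at least 1 summit in its window in every list, where a window is the gene record with 20 kb on each side. Among all protein-coding genes the share with a summit in the window was 76.1%, 81.7% and 72% in the ABC-, old- and young-labelled lists as deposited, and 72.5%, 73.3% and 72% in equal-length lists. The 10 windows, 847 kb in all, held 43, 88 and 37 summits in the ABC-, old- and young-labelled lists. As a share of its own list, this came to 0.0947% for ABC (exact 95% Clopper-Pearson bounds 0.0686 and 0.128), 0.0809% for old (bounds 0.0649 and 0.0997) and 0.111% for young (bounds 0.0784 and 0.153). Such bounds reflect counting error alone. The median density was 4.56, 10.97 and 4.44 summits per 100 kb of window, against 3.67, 8.86 and 2.45 over all protein-coding genes. Equal-length lists gave medians of 3.55, 4.56 and 4.44 for the 10 genes, against 2.41, 2.44 and 2.45 over all genes.

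**Figure D1:**
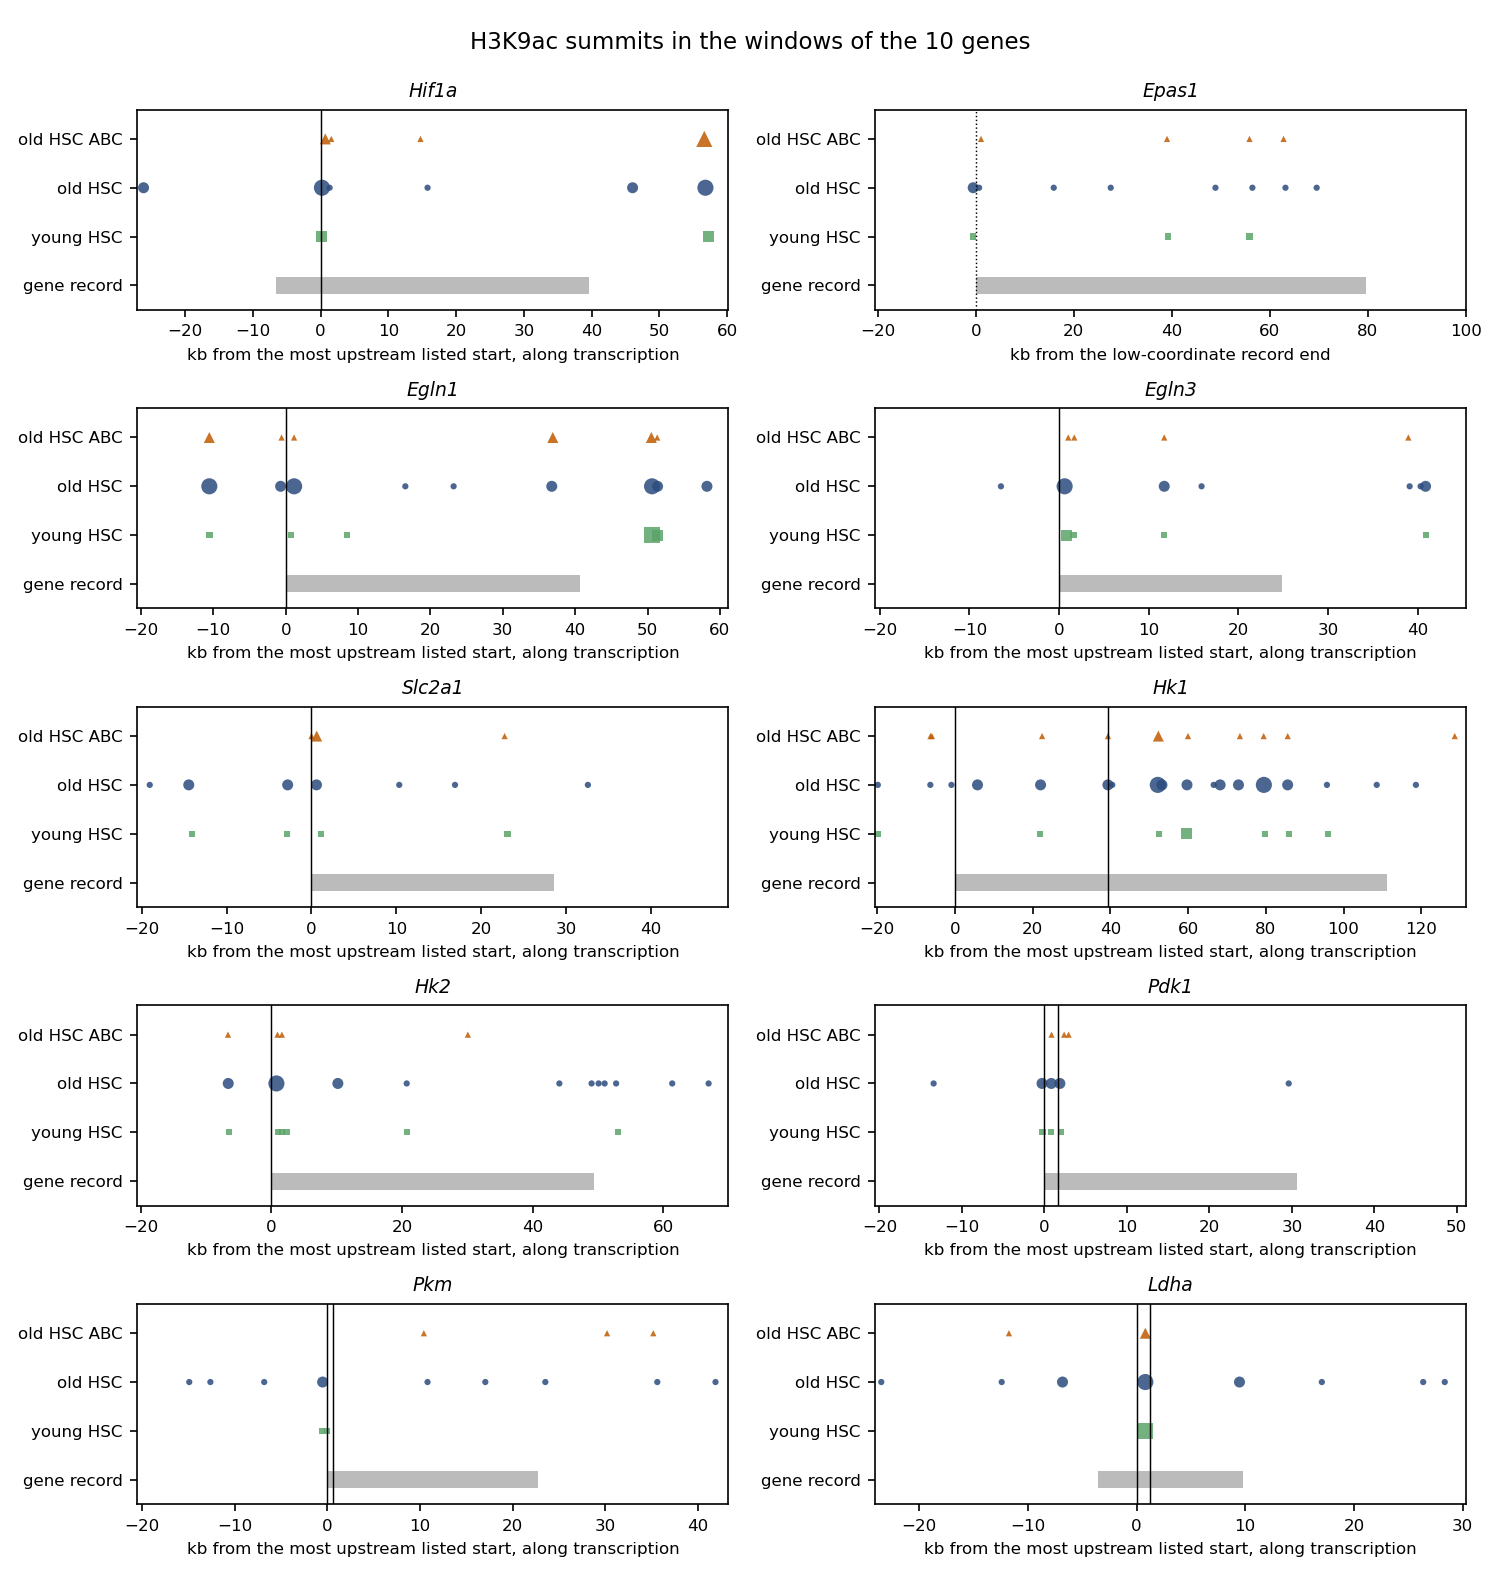
Position of every summit in the windows of the 10 genes, in kb from the most upstream listed start along the direction of transcription (for Epas1, from the low-coordinate end of its record, dotted line). Large, middle and small symbols are summits in the top 10%, the top 25% and the rest of their own list, the bars are gene records and the vertical lines are listed starts. Hk1 had 18 old-labelled summits, and Ldha had 1 young-labelled summit, close to its starts.

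Hk1, which encodes the hexokinase expressed in most tissues, held the most summits in each list, with 10 ABC-labelled, 18 old-labelled and 7 young-labelled ones. Its record of 111 kb is also the longest of the 10. The fewest were 2 at Ldha in the ABC-labelled list, 5 at Pdk1 in the old-labelled list and 1 at Ldha in the young-labelled list. All 10 genes had more summits in the old-labelled than in the young-labelled list, as did 75.5% of all genes, and none had fewer (1.35%). No gene of the 10 had more in the ABC-labelled than in the old-labelled list (3.34% of all genes), and all 10 had more in the old-labelled list (71.8% of all genes). Against the young-labelled list, the ABC-labelled list had more summits at 6 of the 10 (43.4% of all genes) and fewer at Slc2a1 and Hk2 (15.5% of all genes).

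List length moved these counts. In equal-length lists the windows held 31 ABC-labelled, 44 old-labelled and 37 young-labelled summits. The old-labelled list then had more than the young-labelled list at Hif1a, Egln1, Hk1 and Ldha (25.6% of all genes) and fewer at Epas1, Slc2a1 and Hk2 (27.5%). Set against the old-labelled list, the ABC-labelled list had more at none of the 10 (26.8%) and fewer at 7 (26.8%), namely Hif1a, Egln1, Egln3, Hk1, Hk2, Pdk1 and Ldha. Compared with the young-labelled list, it had more at Egln1 and Ldha (26.2%) and fewer at 5 (28.3%).

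**Figure D2:**
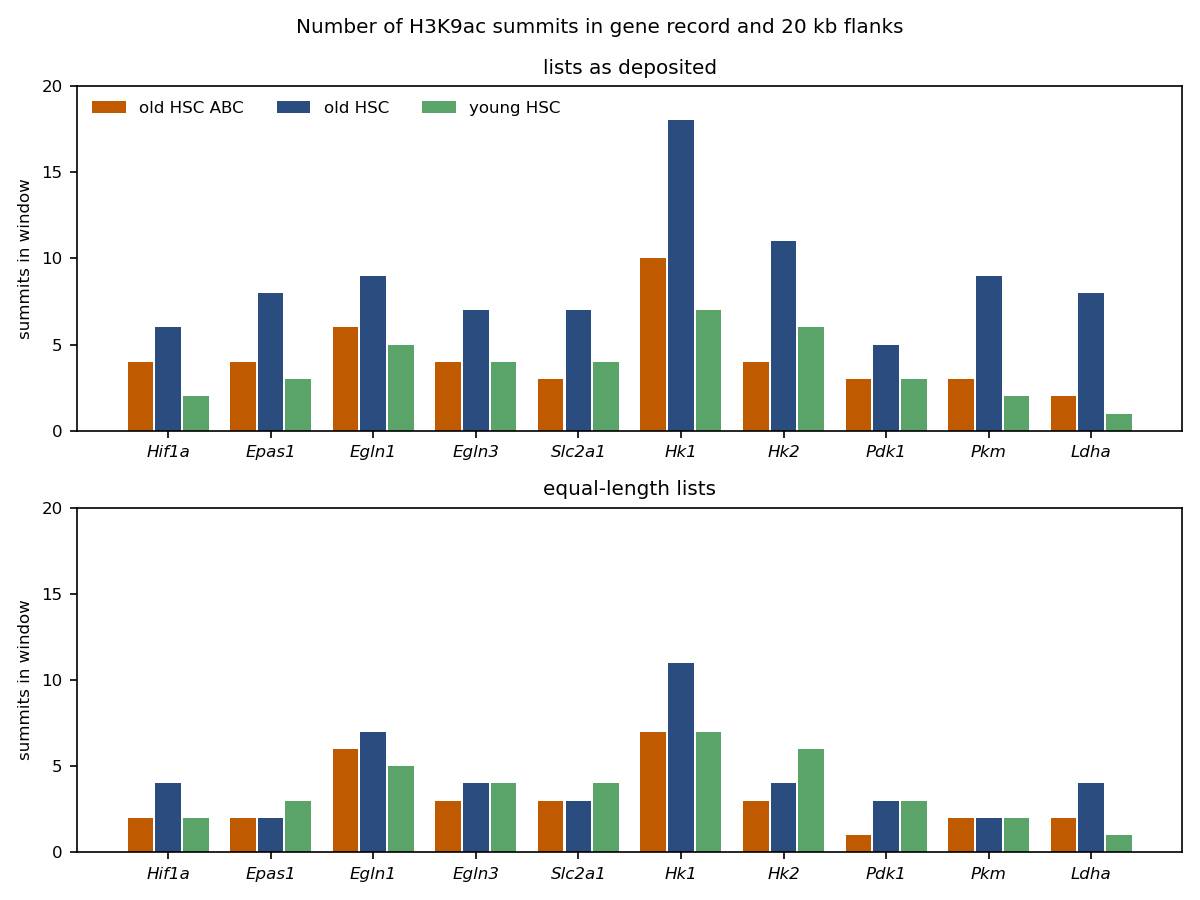
Number of summits in each window by gene and library, with lists as deposited above and equal-length lists below. The old-labelled bars are the tallest at all 10 genes as deposited, up to 18 at Hk1, and at equal length the young-labelled bar is the tallest at Epas1, Slc2a1 and Hk2.

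Starts of transcription were taken from RefSeq promoter entries of GRCm38.p6, which shares its coordinates with mm10. Entries were found for 9 of the 10 genes and for 17492 of the 21887. For Epas1, as for the other genes matched to no entry, either end of the record served as the start. A start summit is a summit within 1 kb of a start. All 10 genes had one in the old-labelled list (57.5% of all genes), 7 in the ABC-labelled list (45.3%) and 7 in the young-labelled list (44.2%). Hif1a, Egln1, Pdk1 and Ldha had one in all 3 lists (39.2% of all genes). Slc2a1, Hk1 and Hk2 had an old-labelled start summit but no young-labelled one (14.5% of all genes), and none of the 10 had the reverse (1.14%). The same 3 genes had one in the ABC-labelled and none in the young-labelled list (5.44%). Epas1, Egln3 and Pkm had none in the ABC-labelled list but one in the old-labelled list (13.9%) and one in the young-labelled list (4.4%). No gene of the 10 had an ABC-labelled start summit without an old-labelled one (1.67%). In equal-length lists 3 of the 10 had an old-labelled and no young-labelled start summit (6.62%), and 0 had the reverse (2.47%). There, 3 had an ABC-labelled and no young-labelled one (4.04%), and 4 had the reverse (5.62%). Likewise 0 had an ABC-labelled and no old-labelled one (2.42%), and 4 had the reverse (8.15%).

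At 4 of these 6 genes a summit of the other list lay just past the 1 kb limit. The nearest young-labelled summits lay 1006 bp from the Hk2 start and 1084 bp from the Slc2a1 start. Likewise, the nearest ABC-labelled summits lay 1023 bp from the Egln3 start and 1074 bp from an end of the Epas1 record. A summit was missing over a longer stretch at only 2 of the 10 genes. Around the Hk1 starts, no young-labelled summit lay within 5 kb, against an old-labelled and an ABC-labelled start summit, a pattern of 10.4% and 3.5% of all genes. Pkm had no ABC-labelled summit within 5 kb of a start, against an old-labelled and a young-labelled start summit, a pattern of 9.02% and 2.46% of all genes. No gene of the 10 lacked an old-labelled summit within 5 kb while having an ABC-labelled (0.32%) or a young-labelled (0.151%) start summit. When summits of the 3 lists lying within 500 bp of the next were joined into sites, 7 of the 10 genes had a site at a start in all 3 lists (37.4% of all genes). Those without one were Epas1, Hk1 and Pkm.

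**Figure D3:**
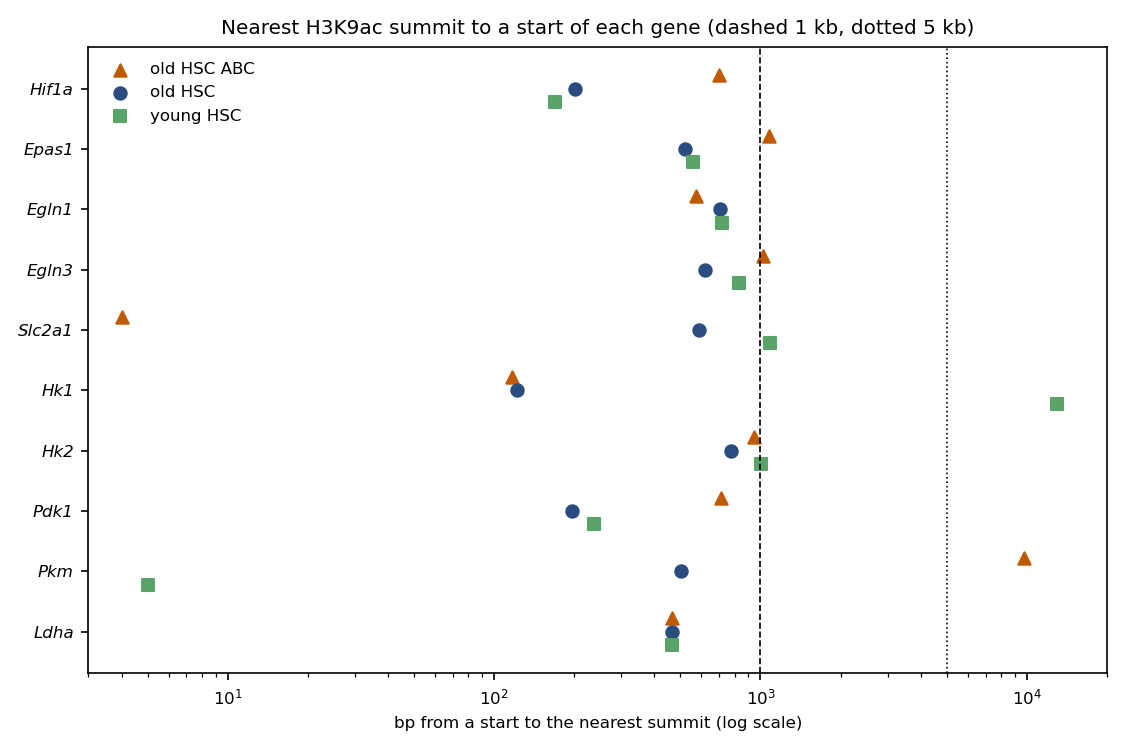
Distance in bp, on a log scale, from a start of each gene to the nearest summit of each library (for Epas1, from a record end). The points beyond the 5 kb line are the young-labelled one of Hk1 at 12945 bp and the ABC-labelled one of Pkm at 9777 bp.

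Each gene was placed by its highest-scoring start summit alone, and some genes had weaker ones. Within the old-labelled list these highest ones stood in the top 15.3% for all 10 genes, with Ldha (top 2.25%) first and Hk1 last. In the young-labelled list the order opened with Ldha (top 7.30%) and Hif1a (top 10.5%), and it closed with Epas1 (top 95.5%). Hif1a (top 18.0%) and Ldha (top 18.4%) led the ABC-labelled list, in which Pdk1 (top 82.2%) came last. Over the genes with a listed start, the median place of the highest-scoring start summit was the top 26.2%, 10.01% and 27.8% for the 10 genes in the ABC-, old- and young-labelled lists. The same medians over all genes with a start summit were 14.7%, 6.55% and 17.4%. Summits of the 10 genes lay farther from the start, at a median of 614, 504 and 351 bp in the ABC-, old- and young-labelled lists, against 275, 271 and 305 bp over all genes. By the nearest listed start, they were downstream in 3 of 7, 4 of 9 and 3 of 6 cases, against 69.3%, 68.5% and 71.0% over all genes. The Ldha summit between its listed starts, 813 or 814 bp downstream of the upstream one, counted as upstream in all 3 lists. So did the ABC-labelled Pdk1 summit, 863 bp downstream of the upstream Pdk1 start. These counts thus rest on which start is used.

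**Figure D4:**
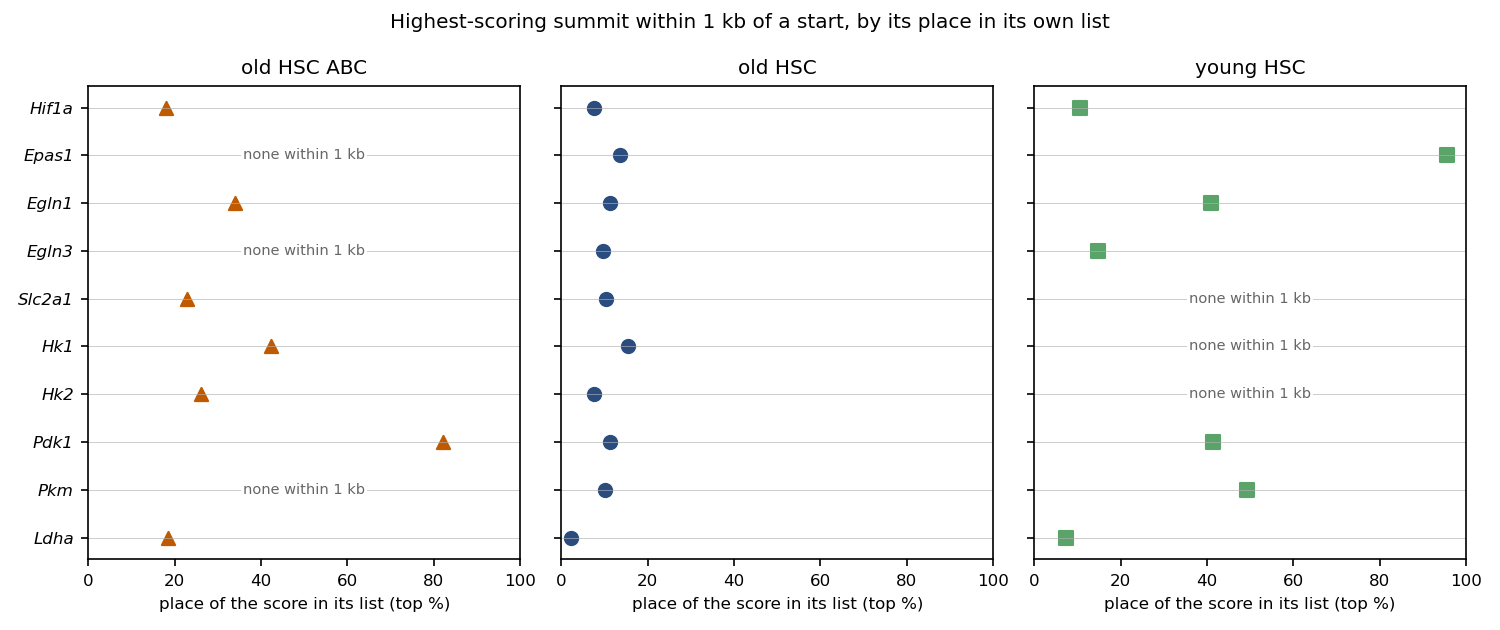
Place of the highest-scoring summit within 1 kb of a start in its own list, as a percentage of that list, by gene and library. The 10 old-labelled points lie between 2.25% and 15.3%, and the young-labelled points spread between 7.30% and 95.5%.

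The promoter sequences from RefSeq (GRCm38.p6, 250 bases before to 50 after a start) are shown for the 6 genes at which a summit fell inside the printed stretch or the start summit led the lists. Capitals mark the HIF core on either strand, ACGTG or GCGTG as read 5′ to 3′ or as CACGT or CACGC from the other strand. CACGTG, the E-box bound by other factors such as MYC and USF, holds the core on both strands.
Ldha, chr7:46845554-46845853, plus strand: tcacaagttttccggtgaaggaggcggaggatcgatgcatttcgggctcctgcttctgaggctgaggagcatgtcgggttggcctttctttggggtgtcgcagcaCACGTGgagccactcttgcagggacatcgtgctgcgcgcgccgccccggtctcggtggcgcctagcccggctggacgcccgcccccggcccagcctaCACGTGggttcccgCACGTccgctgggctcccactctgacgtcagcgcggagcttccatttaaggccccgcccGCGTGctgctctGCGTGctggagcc
Hif1a, chr12:73907617-73907916, plus strand: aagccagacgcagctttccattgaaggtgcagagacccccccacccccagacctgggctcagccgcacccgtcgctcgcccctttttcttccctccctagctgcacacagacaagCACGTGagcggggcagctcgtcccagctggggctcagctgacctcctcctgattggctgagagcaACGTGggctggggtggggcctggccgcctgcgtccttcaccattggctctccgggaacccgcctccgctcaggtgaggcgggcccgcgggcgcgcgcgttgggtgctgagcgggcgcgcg
Hk1, downstream start, chr10:62340372-62340671, minus strand: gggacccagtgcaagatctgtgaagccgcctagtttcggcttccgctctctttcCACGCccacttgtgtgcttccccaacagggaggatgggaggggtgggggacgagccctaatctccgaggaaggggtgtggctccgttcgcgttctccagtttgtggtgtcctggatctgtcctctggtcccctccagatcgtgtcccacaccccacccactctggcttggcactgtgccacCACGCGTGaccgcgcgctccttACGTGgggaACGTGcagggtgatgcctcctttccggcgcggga
Slc2a1, chr4:119108495-119108794, plus strand: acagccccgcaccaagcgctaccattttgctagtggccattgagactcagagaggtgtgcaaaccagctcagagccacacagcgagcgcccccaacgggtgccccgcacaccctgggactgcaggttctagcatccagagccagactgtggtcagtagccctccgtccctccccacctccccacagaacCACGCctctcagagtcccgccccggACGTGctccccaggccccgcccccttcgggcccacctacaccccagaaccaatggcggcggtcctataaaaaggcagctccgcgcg
Pkm, upstream start, chr9:59656326-59656625, plus strand: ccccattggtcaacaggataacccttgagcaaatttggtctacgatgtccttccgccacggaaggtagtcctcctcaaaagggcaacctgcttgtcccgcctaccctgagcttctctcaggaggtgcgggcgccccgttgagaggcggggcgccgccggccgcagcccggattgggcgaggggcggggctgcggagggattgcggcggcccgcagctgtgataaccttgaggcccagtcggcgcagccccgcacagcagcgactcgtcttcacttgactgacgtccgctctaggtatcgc
Pdk1, upstream start, chr2:71872974-71873273, plus strand: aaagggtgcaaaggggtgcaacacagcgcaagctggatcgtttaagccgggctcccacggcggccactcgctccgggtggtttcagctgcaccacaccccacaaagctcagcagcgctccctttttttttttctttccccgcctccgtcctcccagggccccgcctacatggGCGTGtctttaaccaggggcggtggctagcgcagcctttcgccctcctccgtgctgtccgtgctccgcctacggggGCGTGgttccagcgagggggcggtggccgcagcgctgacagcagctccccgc

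The stretch shown for Ldha is that of its upstream start. It held 5 core sites, the most among the 13 promoters of the 9 genes, and CACGTG was among them, as at Hif1a. The downstream start of Ldha, which lay nearer to the start summits (464 or 465 bp), had 2 core sites and no CACGTG. The downstream start of Hk1 had 4, Hif1a, Slc2a1 and the upstream start of Pdk1 had 2 each and the upstream start of Pkm had 0. The summits inside these stretches were the ABC-labelled one at base 255 of Slc2a1, the ABC- and old-labelled ones at bases 134 and 129 of Hk1, and the young-labelled ones at base 246 of Pkm and base 13 of Pdk1. A core was found in 10 of the 13 promoters, or 76.9%, against 49.3% of 21263 promoters of protein-coding genes. The 13 promoters had a median GC content of 65.0% and 23 CpG dinucleotides, against 56.3% and 13. A match of letters is a description of sequence and no measurement of binding.

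Hif1a encodes the oxygen-labile subunit of HIF-1 and lies on chromosome 12 (73901324 to 73947554). Its window held 4 ABC-labelled, 6 old-labelled and 2 young-labelled summits. The start summits lay 700 bp downstream of the start in the ABC-labelled list (score 7.82), 202 bp downstream in the old-labelled list (19.1) and 170 bp downstream in the young-labelled list (14.1). The old- and young-labelled summits were 32 bp apart. The strongest ABC- and old-labelled summits of the window, in the top 3.27% and top 1.05% of their lists, lay outside the gene. They were at 73964512 and 73964676 inside the record of Snapc1, a subunit of the small nuclear RNA activating complex, where the young-labelled list had a summit at 73965110.

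Epas1 encodes HIF-2alpha, a subunit best known from endothelium, and lies on chromosome 17 (86753864 to 86833410). Its window held 4 ABC-labelled, 8 old-labelled and 3 young-labelled summits, none of them inside another gene's record. Close to the low-coordinate record end lay an old-labelled summit at 522 bp (score 11.2, top 13.5%) and a young-labelled one at 557 bp (score 1.90, top 95.5%), both outside the record. A second old-labelled summit lay 694 bp inside it (4.26, top 48.0%). The nearest ABC-labelled summit was inside the record at 1074 bp (2.94, top 71.2%). Inside the record, ABC- and young-labelled summits stood 120 bp apart at 86792893 and 86793013, and 23 bp apart at 86809703 and 86809726. The nearest old-labelled summit to the second pair was at 86810301. No site of Epas1 was shared by all 3 lists within 500 bp.

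Egln1 encodes PHD2, the main oxygen-sensing HIF hydroxylase, and lies on chromosome 8 (124908587 to 124949254). Start summits lay on both sides of its start. The upstream ones were at 575 bp in the ABC-labelled list (score 5.21) and at 707 bp in the old-labelled list (13.4), and a young-labelled one lay 720 bp downstream (5.29). Just past the 1 kb limit downstream, the ABC-labelled list had a summit at 1153 bp (5.23) and the old-labelled list one at 1159 bp (15.4). A further site upstream of the gene was present in all 3 lists and was the strongest of the window in the ABC- and old-labelled lists. Its summit was at the same base, 124959813, which is 10559 bp from the start, in the ABC-labelled (10.4, top 11.5%) and old-labelled (20.2, top 7.18%) lists. The young-labelled summit was 32 bp away (5.51, top 38.3%). Near 124912343, within the record and 36911 bp from the start, ABC- and old-labelled summits lay 143 bp apart and the young-labelled list had none. An old-labelled summit of the window at 124891039 lay in the record of Exoc8, an exocyst subunit. Sprtn, a DNA-protein crosslink protease gene whose record falls in the window, held 2 summits in each list.

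Egln3 encodes PHD3, a hydroxylase that is itself a known HIF target, and lies on chromosome 12 (54178981 to 54203874). The old-labelled start summit lay 617 bp downstream of the start (score 15.6, top 9.53%) and the young-labelled one 829 bp downstream (11.5, top 14.8%). The nearest ABC-labelled summit was 1023 bp downstream (3.36, top 61.0%). All 3 lists had a summit at the same base inside the record, 54192150, 11724 bp downstream of the start, with scores of 4.57, 7.31 and 5.75 in the ABC-, old- and young-labelled lists. It was the only summit of the 10 windows at 1 base in all 3 lists. Over the genome 358 such bases were found, or 1.08% of the 33248 summits of the shortest list. ABC- and old-labelled summits shared a base 3 times in the windows and 1931 times in the genome. For old- and young-labelled ones the counts were 2 and 1686, and for ABC- and young-labelled ones 2 and 1306.

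Slc2a1 encodes GLUT1, the basal glucose transporter, and lies on chromosome 4 (119108745 to 119137330). Its window held 3 ABC-labelled, 7 old-labelled and 4 young-labelled summits, none of them inside another gene's record. The ABC-labelled list had summits 4 bp (score 5.95) and 614 bp (6.75) downstream of the start, and the old-labelled list had one at 590 bp (14.4). The nearest young-labelled summit lay 1084 bp downstream (3.77, top 59.8%). Upstream of the gene, old- and young-labelled summits stood at 2804 and 2870 bp before the start, and again at 14451 and 14107 bp, and the ABC-labelled list had no summit upstream of the gene in the window.

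Hk1 lies on chromosome 10 (62268855 to 62379920) and has 2 listed starts, an upstream one at 62379908 and a downstream one at 62340421. At the downstream start the ABC-labelled summit lay 117 bp upstream (score 4.49, top 42.4%) and the old-labelled one 122 bp upstream (10.02, top 15.3%). No young-labelled summit was closer than 12945 bp. The upstream start had a weak old-labelled summit at 906 bp (2.15, top 91.4%), and its nearest ABC- and young-labelled summits lay 5931 and 19786 bp away. Inside the record, however, the young-labelled list held 6 summits, and 5 sites of the record were present in all 3 lists, the most of any of the 10 genes. Of these, 4 lay 12704 to 46535 bp downstream of the downstream start, and the fifth lay between both starts. At 62320200 the old-labelled (10.9, top 13.9%) and young-labelled (8.56, top 22.7%) summits were at the same base, with an ABC-labelled summit (5.89, top 28.2%) 256 bp away. An old-labelled summit at 62261291 lay in the record of Tacr2, a tachykinin receptor gene. Part of the window belonged to Hkdc1, a neighbouring hexokinase gene, whose record held 2, 2 and 1 of the ABC-, old- and young-labelled summits.

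Hk2, which encodes the inducible hexokinase of muscle and many tumours, lies on chromosome 6 (82725025 to 82774454). Summits lay 942 bp downstream of the start in the ABC-labelled list (score 6.13, top 26.2%), 774 bp downstream in the old-labelled list (19.5, top 7.44%) and 1006 bp downstream in the young-labelled list (5.01, top 43.1%). These 3 fell within 232 bp. The young-labelled list had 2 more within 2334 bp of the start and the ABC-labelled list 1 more, whereas the old-labelled list had no other within 5 kb. A site 6512 to 6633 bp upstream of the start was present in all 3 lists within 121 bp, at the top 95.8%, 13.9% and 49.2% of the ABC-, old- and young-labelled lists. Around the far end of the record, from 82707542 to 82725449, the old-labelled list had 6 summits, the young-labelled list 1 and the ABC-labelled list none.

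Pdk1 encodes a kinase that switches off pyruvate dehydrogenase and so keeps pyruvate out of the mitochondrial cycle. It lies on chromosome 2 (71873215 to 71903858) with listed starts at 71873224 and 71874904. Around these starts the old-labelled list had 3 summits (scores 13.4, 8.72 and 8.96) and the young-labelled list 3 (5.22, 3.41 and 4.84). The ABC-labelled list had 2 weak ones (2.53 and 1.88, top 82.2% and top 95.5%) and another just past the limit, at 1248 bp (3.45, top 59.2%). Near the upstream start itself, the old- and young-labelled summits at 291 and 238 bp before it shared their site with no ABC-labelled summit. Neither start kept an ABC-labelled start summit in equal-length lists, in which 6 of the 10 genes had one in the ABC-labelled list (42.6% of all genes), 10 in the old-labelled list (48.4%) and 7 in the young-labelled list (44.2%).

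Pkm encodes the muscle-type pyruvate kinases PKM1 and PKM2 and lies on chromosome 9 (59656576 to 59679372). The old-labelled start summit lay 504 bp upstream of the upstream start (score 14.9, top 10.01%). The young-labelled list had a summit 5 bp before that start (4.48, top 49.3%) and another at 558 bp (3.86, top 58.7%). The ABC-labelled list had none nearer than 9777 bp (1.80, top 96.5%). Its other summits in the window, at 59686780 and 59691774, lay inside the neighbouring record of Gramd2. Of 9 old-labelled summits in the window, 6 lay in the records of Gramd2 and Parp6, a member of the poly-ADP-ribose polymerase family.

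Ldha encodes the lactate dehydrogenase subunit that turns pyruvate into lactate, and lies on chromosome 7 (46842274 to 46855627) with listed starts at 46845804 and 46847082. Its summit between both starts was at 46846617 in the ABC-labelled (score 7.71, top 18.4%) and old-labelled (40.8, top 2.25%) lists and 1 base away in the young-labelled list (16.8, top 7.30%). In the old- and young-labelled lists it was the highest-scoring start summit of the 10 genes. It was the only young-labelled summit of the window. The old-labelled list had 7 others, of which 4 lay inside the records of Gtf2h1 and Ldhc, the testis-type lactate dehydrogenase, and the ABC-labelled list had 1 other.

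Over the 10 windows the summits formed 102 sites. Of these, 19 were present in all 3 lists, or 18.6%, against 14.3% of 124201 sites in the genome. The sites at starts made up 8 of the 19, and 11 lay more than 1 kb from a start of the gene, 3 of them inside records of other genes. Old-labelled summits alone formed 48 sites, or 47.1% against 53.5% in the genome, and 46 of the 48 lay more than 1 kb from a start of the gene. Starts of neighbouring genes were not checked for any of these sites. The share of sites near starts was not taken over the genome, so these counts at and away from starts have no background. The ABC- and young-labelled lists shared 5 sites that had no old-labelled summit, at Epas1, Egln3, Slc2a1 and Hk2, or 4.90% against 1.45%. Of the ABC-labelled summits in the windows 69.8% had an old-labelled summit within 500 bp (95% Clopper-Pearson interval 53.9 to 82.8) and 48.8% a young-labelled one (33.3 to 64.5). Of the old-labelled summits 34.1% had an ABC-labelled (24.3 to 45.0) and 33.0% a young-labelled neighbour (23.3 to 43.8). Of the young-labelled summits 59.5% had an ABC-labelled (42.1 to 75.2) and 81.1% an old-labelled neighbour (64.8 to 92.0). The same 6 shares over the whole lists were 72.4%, 43.5%, 30.3%, 23.8%, 59.0% and 77.4%, each inside the interval of the 10 windows.

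A further 60 genes of glycolysis and the hypoxia response were listed by role. Start summits were found at 38 of them in the ABC-labelled list, 51 in the old-labelled list and 41 in the young-labelled list, against 45.3%, 57.5% and 44.2% of all genes. As shares of the 60 these were 63.3%, 85.0% and 68.3%. Equal-length lists gave 36, 44 and 41 of the 60, against 42.6%, 48.4% and 44.2% of all genes. As deposited, 33 had one in all 3 lists, or 55.0% against 39.2% of all genes. The glycolytic enzymes stood at 9, 12 and 11 of 15. Eno1, an enolase, ranked highest of them, in the top 1.37%, 1.78% and 9.45% of the ABC-, old- and young-labelled lists. The lowest of them with a start summit stood at the top 66.7%, 58.7% and 75.8%. The HIF subunits and regulators stood at 8, 9 and 9 of 11, and the HIF targets at 10, 12 and 11 of 16. Lactate and glucose transporters stood at 2, 3 and 3 of 3, the other hexokinases at 2, 3 and 1 of 3, and the regulators of glycolysis at 3, 5 and 3 of 5. Pyruvate dehydrogenase, its kinases and phosphatases stood at 4, 7 and 3 of 7. In equal-length lists the old-labelled hexokinases stood at 1 of 3, and the old-labelled counts of the other roles, except the HIF subunits and regulators, were lower by 1 gene each. The ABC-labelled hexokinases stood at 1 of 3 there, and pyruvate dehydrogenase with its kinases and phosphatases at 3 of 7. A start summit in no list was found at 8 of the 60 genes (40.3% of all genes), among them Pgam1, Eno3, Arnt2, Hif3a, Vegfa, Car9 and Adm. At Pgam1 the nearest summits in the ABC-, old- and young-labelled lists lay 1466, 1393 and 1250 bp from a start. The distances were 1753, 1749 and 1753 bp at Car9, 2904, 1342 and 1729 bp at Vegfa, and 4074, 2771 and 2865 bp at Eno3. They were 13853, 1851 and 16067 bp at Hif3a, 51928, 23343 and 12899 bp at Arnt2, and 43317, 3668 and 43344 bp at Adm.

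In equal-length lists, an old-labelled start summit and a gap of over 5 kb to any young-labelled one marked 3 of the 60 (4.31% of all genes). They were Pdp1, a phosphatase that reactivates pyruvate dehydrogenase (old-labelled score 21.4, nearest young-labelled summit 43563 bp away), Pfkfb4, which sets the level of fructose 2,6-bisphosphate (17.8, 8509 bp), and Pdk2, a second pyruvate dehydrogenase kinase (7.02, 14547 bp). For Pdp1, as for Epas1, record ends served as the start. The reverse was found at 0 of the 60 (1.18%). Pdp1 also had an ABC-labelled start summit with the same young-labelled gap (score 9.88), the only 1 of the 60 (2.45%).

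Between the ABC-labelled and old-labelled lists, 9 of the 60 had an old-labelled start summit and no ABC-labelled summit within 5 kb in equal-length lists (5.5% of all genes). The 4 highest in the old-labelled list were Pfkfb4 (17.8), Pdk3 (16.9), the HIF hydroxylase gene Egln2 (15.3) and Slc16a3, the lactate exporter MCT4 (12.0). Their nearest ABC-labelled summits as deposited lay 17607, 235, 11701 and 10517 bp from a start, and that of Pdk3 was too low in score to enter the shortened ABC-labelled list. The reverse was found at 1 gene (1.21%), Pklr, the liver-type pyruvate kinase (3.16), which as deposited had an old-labelled summit at 127 bp. Young-labelled start summits with that ABC-labelled gap were found at 7 of the 60 (3.61%). Highest in the young-labelled list were Slc16a3 (8.73), the phosphoglycerate kinase gene Pgk1 (8.001), Pdk3 (6.21) and Tigar, a fructose bisphosphatase (4.45).

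**Figure D5:**
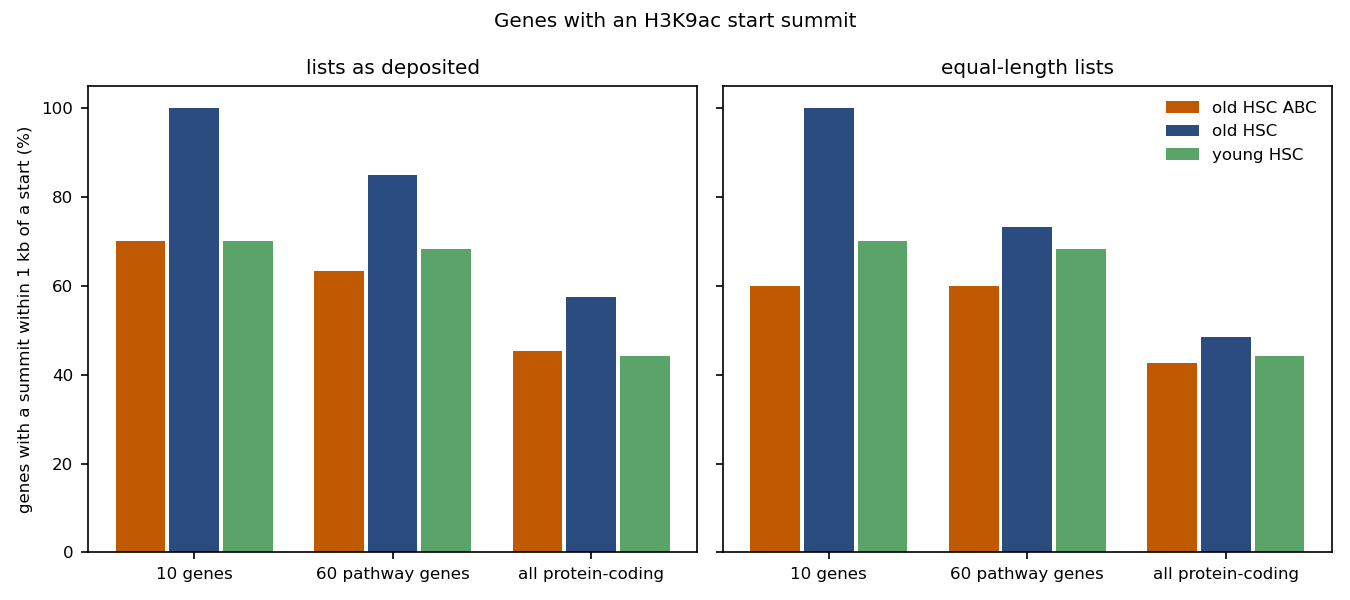
Percentage of genes with a summit within 1 kb of a start, for the 10 genes, the 60 further pathway genes and all protein-coding genes, by library, with lists as deposited on the left and equal-length lists on the right. The old-labelled bar is the tallest in each set, and at equal length the 3 bars of all protein-coding genes lie between 42.6% and 48.4%.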

How the data were processed

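Summit lists of H3K9ac CUT&Tag from 3 libraries of sorted mouse HSCs were analysed, 1 per group. The submitters' processing notes name mm10, BWA, Picard, MACS2 and edgeR, with no versions; which step each did, the peak calling settings and any control library are not stated in the labels. The authors' deposited lists hold 1 bp summits and a score, taken to be the −log10 q-value of the authors' peak calling in that library, since the lowest values sit just above 1.30. There is 1 list per sample, so calling per library was assumed. Groups follow the labels, although the names inside the files are oHSC-H3K9ac-2 (ABC-labelled), oHSC-ABC-H3K9ac-1 (old-labelled) and oHSC-H3K9ac-1 (young-labelled). Ages come from the protocol, which gives both ranges, and from the first letter of each title.

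Gene records and starts came from RefSeq tables of GRCm38.p6, and 4395 genes matched to no promoter entry used both record ends. Exons, introns and UTRs were not analysed. The 10 genes, the 60 further genes and the marker lists were chosen with earlier results of these data known. All 10 genes were described. Of the 60, those with a start summit in one equal-length list and no summit within 5 kb in another were named, at most 4 per direction by score, with those that had a start summit in no list (1 is not reported here) and the other genes whose record held a summit of a window. Eno1 and the neutrophil and monocyte markers were named after their values were seen. No ranking of genes by likeness was made, with 1 value in each of 3 libraries. Shares have exact 95% Clopper-Pearson intervals. Read depth was unknown. Counting functions were tested on simulated data with planted summits. The alternatives are given with their effect in the closing section. Python 3.11.15, pandas 2.3.3 and scipy 1.17.1 were used.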

Additional observations from a re-analysis of the deposited data

How the results depend on the processing

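Of 46 recomputed values, 33 kept their side and were counted as not moved, 11 moved and 2 crossed 50%. Not all of the 33 were close to the value reported. Sites in all 3 lists numbered 14 against 19 in equal-length lists, where the ABC share of ABC plus old summits was 41.3% against 32.8%. At scores of at least 5, start summits were found at 5 genes against 7 in the ABC- and in the young-labelled list. For shares, the side is that of 50% and not that of the whole-list share. Against the whole-list share, each of the 3 shares below also changed side at some settings. The ABC share of ABC plus young summits did so with flanks of 50 kb, at 59.2%. The cause was not tested, beyond the fewer summits that a stricter setting leaves. Equal-length lists make each whole-list share 50%. The old share of old plus young summits in the 10 windows was 70.4%, against 76.6% over the whole lists, and it was 80.0% at scores of at least 10 (73.3% over the whole lists) and 54.3% in equal-length lists. The ABC share of ABC plus old summits was 32.8%, against 29.4%, and it was 9.09% at scores of at least 10 (24.99% over the whole lists). It was 25.4% at scores of at least 5 (27.8% over the whole lists) and 41.3% in equal-length lists. The ABC share of ABC plus young summits was 53.8%, against 57.7%, and it was below 50% at scores of at least 10, at 28.6% (47.8% over the whole lists), and in equal-length lists, at 45.6%. Within 500 bp of a start, 3, 4 and 4 genes had a summit in the ABC-, old- and young-labelled lists, against 7, 10 and 7 within 1 kb. In the ABC-labelled list the count was 4 with either record end as the start and 0 at scores of at least 10, and in the young-labelled list it was 3 at scores of at least 10. Sites in all 3 lists numbered 19, but 10 when joined within 250 bp and 9 at scores of at least 5. Shares over all genes and all sites were not taken at these other settings. The gene and site counts there describe the 10 genes only and are not set against a background. Scores of at least 10 left 2, 20 and 5 summits in the ABC-, old- and young-labelled windows. No paired analysis was possible because there was 1 library per group and the labels carry no replicate numbers.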

Other observations

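Near the 20 kb limit of the windows, the summits just inside were old-labelled ones at Ldha (46822328, 19946 bp outside the record, score 3.33) and Hk1 (62399761, 19841 bp, 2.81) and a young-labelled one at Hk1 (62399694, 19774 bp, 7.29). Just outside lay ABC-labelled ones at Hk1 (62399979, 20059 bp, 2.64) and Pdk1 (71924163, 20305 bp, 8.41) and an old-labelled one at Pdk1 (71924210, 20352 bp, 3.92). The ABC-labelled summit of Hk1 lay within 500 bp of the old- and young-labelled ones just inside.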
